A study of Mus musculus with 29 samples.

Results

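The Hox genes of the 4 mouse clusters were examined in the aortic arch. The members were every gene symbol made of Hox, a cluster letter from a to d and a paralogue number, which gave 39 of the 51456 genes in the files. No measured value entered this choice. A member was called detected where its value was at least 1 in at least 9 libraries, a bar that 13510 of all genes and 16 of the 39 Hox genes passed.

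RNA was sequenced from the arch of male C57BL/6 mice, labelled 14 weeks old and kept on chow, in a safety study of an antibody against sclerostin (Scl-Ab), a secreted inhibitor of Wnt signalling. Of the 29 libraries, 9 came from mice lacking apolipoprotein E (ApoE KO) that carried a pump infusing 0.11 µL/hr of angiotensin II (AngII) from a 15.27 mg/mL solution and received vehicle injections, called here the vehicle-treated model. A further 10 came from ApoE KO mice with the same AngII pump and weekly injections of Scl-Ab at 10 mg/kg over 4 weeks. The other 10 were labelled WT, had vehicle in the pump and received vehicle injections. The effects of genotype and of AngII cannot be told apart, since WT differs from the model in both, and no library came from ApoE KO mice without AngII or from WT mice with Scl-Ab. The protocol names 9 WT mice for these 10 libraries, so n counts libraries and p-values measure the spread between them. The arch was taken without its branch arteries, and outer fat was swabbed off by hand, so the tissue holds the vessel wall with whatever fat remained.

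Hox genes encode homeodomain transcription factors that lie in order along their clusters. Genes with low paralogue numbers are expressed from the hindbrain and pharyngeal arches backwards, and genes with high numbers only toward the tail and the limb ends. Genes of the same number in different clusters are paralogues, descended from one ancestor. Smooth muscle of the aortic arch derives largely from cardiac neural crest that passes through the caudal pharyngeal arches, and adult vessels keep part of the embryonic Hox pattern. Hox proteins bind DNA with cofactors of the TALE class (Pbx and Meis). Retinoic acid induces the low-numbered genes, and Polycomb and trithorax complexes maintain the silent and active states.

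The DNA before the start sites of detected members was read from RefSeq (build GRCm38.p6), where 8 of the 16 had an entry (Hoxa2, Hoxa3, Hoxa5, Hoxa7, Hoxb4, Hoxb8, Hoxc4 and Hoxd8). The 250 bases before the start are shown for Hoxa2, Hoxb4 and Hoxb8, which were lower in the model than in WT, and for Hoxd8, which was higher. None of these windows overlaps an annotated exon. Capitals mark matches on either strand to TGATNNAT (bound by Hox with Pbx), TGACAG (bound by Meis) or TATAAA (the TATA box), and no 2 matches overlapped.
Hoxa2, chr6:52164832-52165081, - strand: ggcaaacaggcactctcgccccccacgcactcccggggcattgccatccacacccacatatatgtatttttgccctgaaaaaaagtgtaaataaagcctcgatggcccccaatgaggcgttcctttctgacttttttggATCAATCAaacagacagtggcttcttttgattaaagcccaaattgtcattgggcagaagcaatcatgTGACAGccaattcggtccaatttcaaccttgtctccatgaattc
Hoxb4, chr11:96318017-96318266, + strand: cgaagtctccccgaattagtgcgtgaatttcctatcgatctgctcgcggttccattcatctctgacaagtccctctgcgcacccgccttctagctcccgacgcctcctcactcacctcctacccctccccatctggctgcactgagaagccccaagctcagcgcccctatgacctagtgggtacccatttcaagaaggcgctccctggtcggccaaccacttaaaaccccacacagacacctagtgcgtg
Hoxb8, chr11:96281655-96281904, + strand: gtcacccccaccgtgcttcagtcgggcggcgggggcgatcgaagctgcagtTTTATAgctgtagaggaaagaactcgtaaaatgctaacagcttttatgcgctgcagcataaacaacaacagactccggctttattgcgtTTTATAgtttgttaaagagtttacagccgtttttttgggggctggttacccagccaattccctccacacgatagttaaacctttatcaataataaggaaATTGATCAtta
Hoxd8, chr2:74704365-74704614, + strand: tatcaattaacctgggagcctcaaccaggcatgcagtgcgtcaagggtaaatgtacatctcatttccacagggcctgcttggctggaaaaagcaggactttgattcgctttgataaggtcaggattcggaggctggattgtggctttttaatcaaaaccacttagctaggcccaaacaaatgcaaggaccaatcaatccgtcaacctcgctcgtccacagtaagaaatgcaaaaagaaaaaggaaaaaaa

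A match to TGATNNAT was present in the Hoxa2 and Hoxb8 windows, 2 of 8, and in 7.68% of 32851 RefSeq windows of this length. TGACAG was found in the Hoxa2 and Hoxa3 windows and in 15.9% of all windows. TATAAA was found in the Hoxb8 window and in 12.4% of all windows. Neither the CArG box (1.47% of all windows), to which serum response factor binds in smooth muscle genes, nor the retinoic acid receptor motif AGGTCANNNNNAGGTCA (0.00913%) matched any of the 8. The Hoxb4 and Hoxd8 windows held none of these letters. The 8 windows had a median GC content of 56.4% and 10 CpG dinucleotides (range 6 to 28), against 52.4% and 6 over all windows.

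Values are FPKQ, the authors' length-scaled unit, so levels can be compared between genes. The clusters lie on GRCm38 chromosome 6 (Hoxa, 52155590 to 52260880), chromosome 11 (Hoxb, 96194316 to 96368256), chromosome 15 (Hoxc, 102921103 to 103036852) and chromosome 2 (Hoxd, 74668310 to 74765142). In the Hoxa cluster 6 of 11 genes were detected, among them Hoxa2, Hoxa3, Hoxa4, Hoxa5 and Hoxa7. In the Hoxb cluster 7 of 10 were detected, every gene from Hoxb2 to Hoxb8. The other clusters were nearly silent, with 2 of 9 detected in Hoxc (Hoxc4 and Hoxc6) and 1 of 9 in Hoxd (Hoxd8). All 16 detected genes lay among the 23 with paralogue numbers 1 to 8. None of the 16 genes numbered 9 to 13 was detected, and their highest value in any library was 0.647, for Hoxa9 in a vehicle-treated library. This limit follows from the detection rule. In the map of median levels the values were already low at paralogue 8. Hoxa7 and Hoxb7 had medians of 6.28 and 5.33, and Hoxb8, Hoxc8 and Hoxd8 had 1.40, 0.686 and 0.743.

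**Figure D1:**
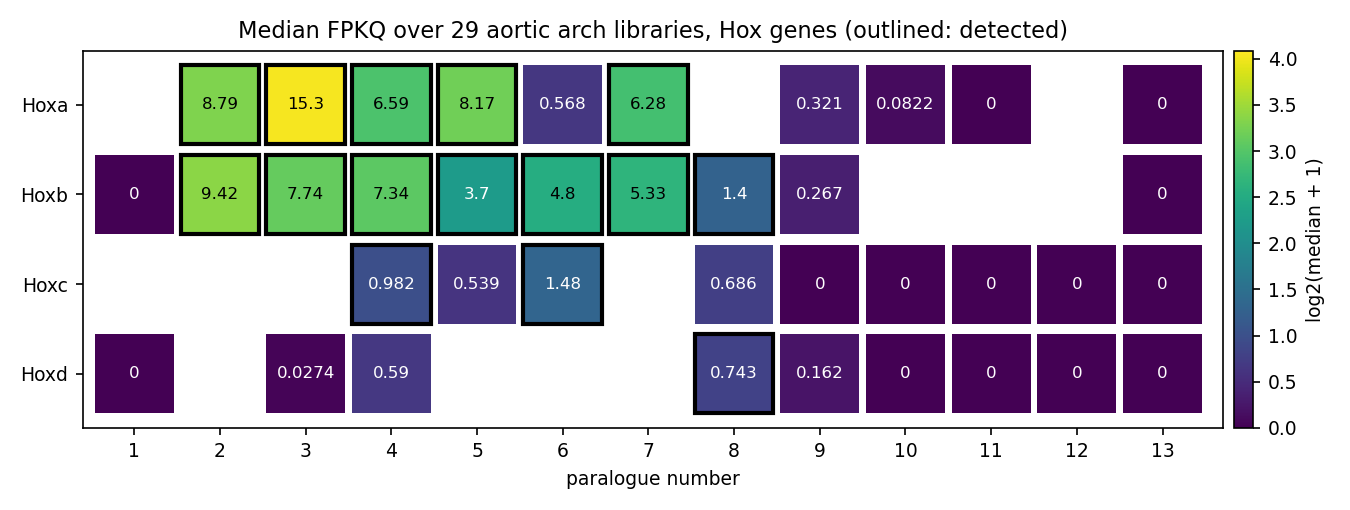
Map of 38 Hox genes by cluster (rows) and paralogue number (columns); the number and colour give the median FPKQ over 29 libraries (colour on a log2(median + 1) scale) and black outlines mark detected genes. The high values lie in the Hoxa and Hoxb rows from paralogue 2 to 7, with Hoxa3 highest at 15.3, and the columns from 9 onward are below 1.

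Of the 23 members not detected, 9 were listed at 0 in every library. A further 11 had some value but never reached 1, among them Hoxa6 (highest 0.931), Hoxb9 (highest 0.510), Hoxd9 (highest 0.604) and Hoxb1 (highest 0.0442). The other 3 reached 1 in a few libraries: Hoxc8 in 6, Hoxd4 in 5 and Hoxc5 in 3. Among detected genes 12 reached 1 in all 29 libraries, Hoxc6 in 26, Hoxb8 in 25, Hoxc4 in 14 and Hoxd8 in 10. Hoxc4 and Hoxd8 passed mainly through the model libraries: in WT only 2 of 10 libraries reached 1 for Hoxc4, and 1 of 10 for Hoxd8. From the step between low values, 31.6 to 43.5 fragments on 2 kb of exon gave a value of 1. A value near 0.5 for Hoxd8, which has 2744 exon bases, therefore rests on fewer fragments than these.

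In WT arch Hoxa3, which patterns derivatives of the third pharyngeal arch such as the thymus and the carotid arteries, had the highest level, 23.8 ± 3.08 (SD, n = 10). Hoxb2 at 14.3 ± 2.66 and Hoxa2 at 13.03 ± 2.02 followed and did not differ beyond their spread. Then came a group whose means mostly lay within an SD of their neighbours. In order they were Hoxb3 (10.2), Hoxa4 (9.58), Hoxb4 (9.50), Hoxa5 (9.06), Hoxb6 (8.98), Hoxa7 (7.48), Hoxb5 (7.19) and Hoxb7 (6.83). The step from Hoxb6 to Hoxa7 was slightly more than the SD of either gene (1.43 and 1.13). A wider step of more than the spread separated the whole group from Hoxb8 at 2.33 ± 0.408. Hoxc6 at 1.43 ± 0.468, Hoxc4 at 0.821 ± 0.177 and Hoxd8 at 0.543 ± 0.245 were lowest. The Hoxa genes together held 51.2 ± 3.17% of the summed Hox level in WT and the Hoxb genes 45.3 ± 4.14%, while Hoxc held 2.54 ± 0.859% and Hoxd 0.970 ± 0.436%.

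The first comparison set the vehicle-treated model against WT. All 13 detected Hoxa and Hoxb genes had lower estimates in the model, and 12 of them passed the test. Of the 3 detected Hoxc and Hoxd genes, Hoxd8 was called higher, but it had passed the detection rule mainly through model libraries, so its call is given as a description. Called are genes with a Benjamini-Hochberg adjusted p under 0.05 over all 13510 genes, from limma on log2(value + 1), the scale on which fold changes are given, which understates changes of low genes. The 13 of 16 called compare with 53.7% of all genes, and the 12 lower compare with 31.0% lower and 22.7% higher among all genes. The median log2 difference of the 16 members was −0.55, against −0.04 over all genes tested. In bulk tissue, fewer cells of a type and less RNA per cell cannot be told apart.

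Hoxa3 had the largest difference. It ranged from 20.4 to 30.9 in WT (median 23.7) and from 5.63 to 15.3 in the vehicle-treated model (median 13.1), and every model library lay below every WT library. Its level was 0.458-fold that of WT (log2 difference −1.13, SE 0.178, adjusted p = 6.00e-06). Within the model the 9 libraries formed a lower group of 4 (5.63, 6.98, 7.10 and 7.38 in replicates 1, 9, 2 and 6) and an upper group of 5 from 13.1 to 15.3.

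Hoxa2, the gene that gives the second pharyngeal arch its identity, ranged from 11.3 to 17.9 in WT (median 12.3) and from 4.33 to 9.02 in the model (median 6.46). The groups did not overlap, and the level in the model was 0.543-fold (adjusted p = 4.05e-06). Hoxa4, a gene of the caudal hindbrain and neck region, ranged from 7.05 to 12.7 in WT (median 9.05) and from 3.82 to 5.33 in the model (median 4.76), also without overlap. It was 0.545-fold (adjusted p = 2.96e-07), and the 9 model libraries were unusually even, with an SD of 0.422 against 1.90 in WT.

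Hoxa5, a gene of the neck, upper thorax and lung, had a median of 9.26 in WT (7.60 to 10.4) and 6.44 in the model (4.97 to 9.32), a 0.786-fold level (adjusted p = 0.00422), and the groups overlapped. Hoxa7 did not pass (0.830-fold, adjusted p = 0.0525, 95% interval of the log2 difference −0.50 to −0.04), and without vehicle replicate 1 it did (adjusted p = 0.0136).

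In the Hoxb cluster all 7 detected genes fell. Hoxb6, a gene of the thoracic region, changed most: it ranged from 6.55 to 11.3 in WT (median 8.77) and from 2.62 to 6.22 in the model (median 4.03). The groups did not overlap, and the level was 0.496-fold (log2 difference −1.01, SE 0.106, adjusted p = 7.17e-09), the smallest p among the members. Hoxb5 ranged from 4.40 to 11.5 in WT (median 7.17) and from 2.69 to 4.39 in the model (median 3.18). It too was separated, though its highest model library and lowest WT library nearly touched, and its level was 0.537-fold (adjusted p = 6.12e-07).

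Hoxb2, which acts in the hindbrain segment that gives rise to the facial nerve, was the second most abundant member in WT. It ranged from 10.3 to 18.5 in WT (median 14.4) and from 4.45 to 11.6 in the model (median 6.81), with 8 of 9 model libraries below every WT library. Its level was 0.537-fold (adjusted p = 9.43e-06). Hoxb4, known for expanding blood stem cells when overexpressed, ranged from 7.61 to 12.7 in WT (median 9.46) and from 3.84 to 7.34 in the model (median 5.11). The groups were separate and the level was 0.608-fold (adjusted p = 0.000106).

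Hoxb8, which marks a lineage of microglia, ranged from 1.48 to 2.81 in WT (median 2.35) and from 0.741 to 1.67 in the model (median 1.21), a 0.666-fold level (adjusted p = 7.71e-06). Hoxb3 had a median of 10.1 in WT (7.63 to 13.6) and 6.50 in the model (4.84 to 9.42), a 0.697-fold level (adjusted p = 0.000211). Hoxb7 had a median of 6.75 in WT (4.91 to 9.32) and 4.93 in the model (3.71 to 7.03), a 0.776-fold level (adjusted p = 0.00625). These 3 genes overlapped between groups. For Hoxb3 the value is uncertain, because 52.9% of its exon bases are shared with the antisense gene Hoxb3os. The use of strand in counting is not given in the sources used here. The share with genes on the other strand was 27.3% for Hoxb2, 25.4% for Hoxa3, 20.4% for Hoxa7, 16% for Hoxa4 and 3.59% for Hoxb5. On the same strand, other genes shared 15% of the exon bases of Hoxa2 and 8.01% of those of Hoxa3. In all, 6 members lay wholly below WT (Hoxa2, Hoxa3, Hoxa4, Hoxb4, Hoxb5 and Hoxb6), and 9.04% of all genes did so. Fall size did not follow paralogue number along the Hoxb cluster, where the log2 differences from Hoxb2 to Hoxb8 were −0.90, −0.52, −0.72, −0.90, −1.01, −0.37 and −0.59.

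**Figure D2:**
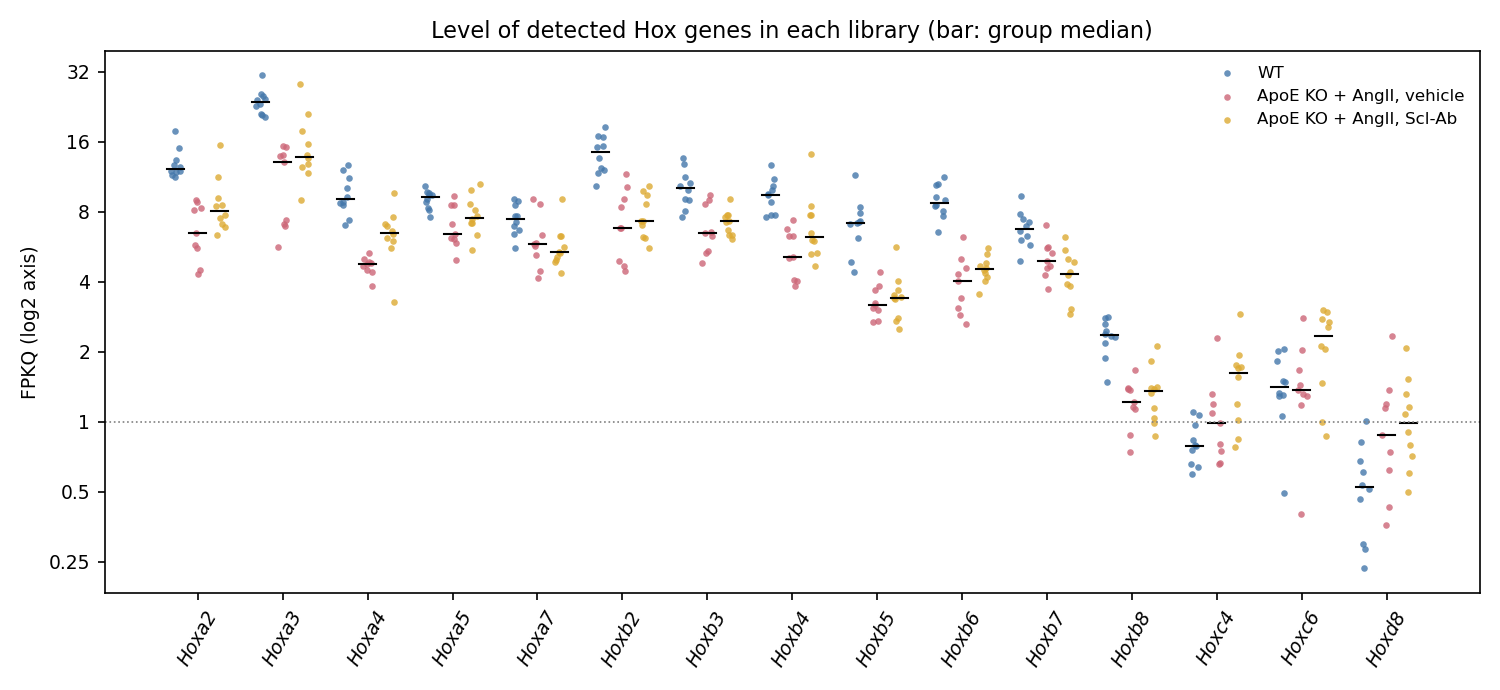
FPKQ (log2 axis) of 15 detected Hox genes in each of the 29 libraries, coloured by group, with group medians as black bars and a dotted line at 1. WT points lie above the vehicle-treated model for Hoxa2, Hoxa3, Hoxa4, Hoxb4, Hoxb5 and Hoxb6 with no overlap, and below most model points for Hoxd8.

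The detected genes of the other clusters had estimates above 0. Hoxd8, an axial patterning gene, ranged from 0.234 to 1.005 in WT (median 0.522) and from 0.359 to 2.33 in the model (median 0.875), with 4 of 9 model libraries above every WT library. It was 1.27-fold higher (log2 difference 0.34, SE 0.144, adjusted p = 0.0459), close to the threshold. Without vehicle replicate 1 the adjusted p was 0.123, and leaving out any of 12 single libraries ended the call.

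Hoxc4 ranged from 0.595 to 1.105 in WT (median 0.789) and from 0.659 to 2.29 in the model (median 0.982), and did not pass (1.12-fold, adjusted p = 0.274, 95% interval of the log2 difference −0.08 to 0.41). Hoxc6, a thoracic gene, ranged from 0.495 to 2.05 in WT (median 1.40) and from 0.401 to 2.78 in the model (median 1.36), with an estimate of 1.01-fold (adjusted p = 0.931, interval −0.30 to 0.34). Hoxd4, below the detection rule and not tested, had medians of 0.551 in WT (0.0738 to 1.05) and 0.548 in the model (0.399 to 0.919). The groups overlapped for all 3.

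Paralogues were then compared within each library, as the difference between the log2(value + 1) of a Hoxc or Hoxd gene and that of its Hoxa or Hoxb counterpart. Detected genes gave 4 such pairs. This measure was chosen after the values were seen and restates the differences of its 2 genes, and Hoxc4 and Hoxd8 were detected mainly through model libraries, so the shifts are given as a description, with no test. Hoxc4 minus Hoxa4 averaged −2.52 ± 0.228 (SD, n = 10) in WT and −1.48 ± 0.323 (SD, n = 9) in the model, with no overlap, a shift of 1.04. Hoxd8 minus Hoxb8 averaged −1.11 ± 0.226 in WT and −0.19 ± 0.459 in the model, also without overlap, a shift of 0.93.

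Hoxc4 minus Hoxb4 shifted by 0.89 and Hoxc6 minus Hoxb6 by 1.03, with a few libraries overlapping. The share of the summed Hox level held by Hoxc went from 2.54 ± 0.859% in WT to 5.48 ± 3.30% in the model, and that of Hoxd from 0.970 ± 0.436% to 2.46 ± 1.25%. The sum over the Hoxa cluster went from 66.9 ± 6.43 to 38.7 ± 5.76 and that over Hoxb from 59.6 ± 9.85 to 33.7 ± 7.19. The Hoxc sum changed less, from 3.26 ± 0.941 (median 3.22) to 4.18 ± 2.335 (median 3.55, highest library 9.39). The Hoxd sum went from 1.25 ± 0.489 to 1.85 ± 0.813.

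**Figure D3:**
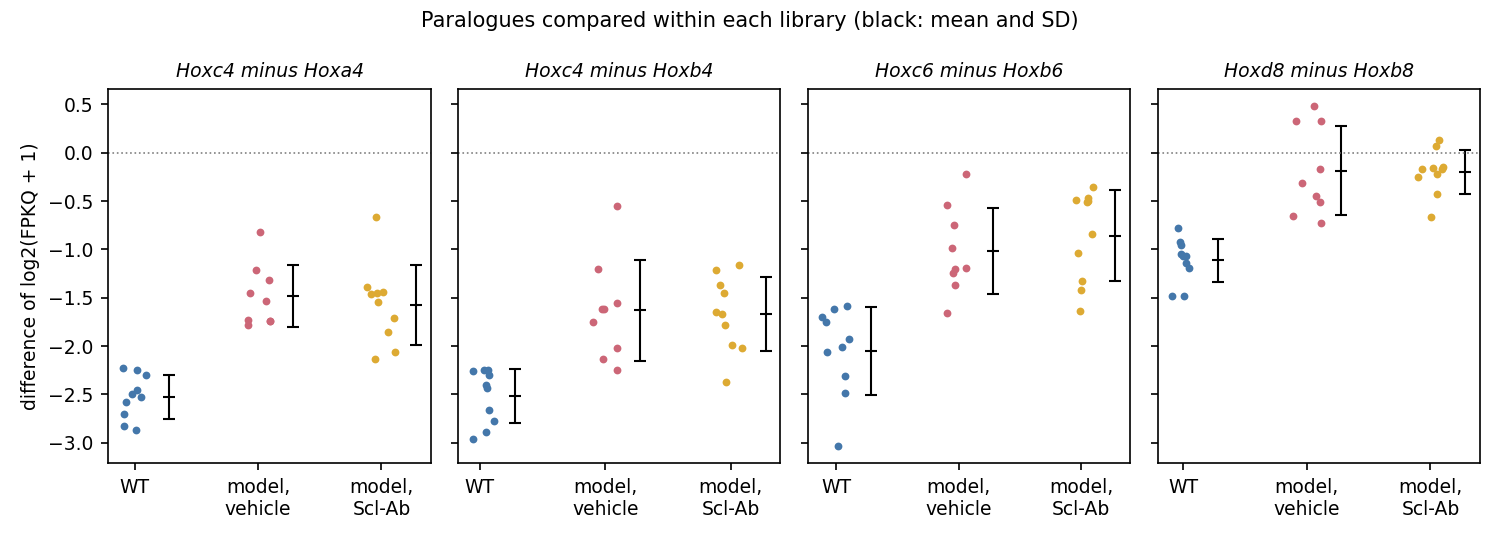
Difference of log2(FPKQ + 1) between paralogues within each library, for 4 pairs in the 3 groups; points are libraries and black marks give mean and SD. The WT mean is lowest in all 4 panels, with some overlap of libraries in the Hoxc4/Hoxb4 and Hoxc6/Hoxb6 panels, and the means of the 2 model groups sit about 1 log2 unit higher, differing from each other by 0.16 or less.

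Cell markers moved with these differences. All 8 contractile smooth muscle markers fell in the vehicle-treated model, from a summed median of 18453 in WT (17304 to 20745) to 11119 (4934 to 16644). All 7 macrophage markers rose, from 176 (80.0 to 274) to 1370 (822 to 2672), and 4 of 7 fibroblast and adventitia markers rose, from 1335 (657 to 1861) to 2091 (1125 to 3859). Of the 8 adipocyte markers 1 rose, and their summed median was 1457 (411 to 2740) in WT and 1767 (631 to 10398) in the model. Thymocyte markers summed to at most 0.7505 in both groups, with Rag1, Dntt, Ptcra and Themis each at a mean under 0.1 in the model. The part of these cell types in the Hox differences was not tested beyond the fits that follow.

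With the contractile level as a covariate in the fit, 10 Hox genes were called, all lower, against 38.5% of all genes, and Hoxd8 (log2 difference −0.35, adjusted p = 0.0347) and Hoxc4 (−0.39, adjusted p = 0.0185) were on the other side of 0. Hoxa3, Hoxb2, Hoxb3 and Hoxb7 were among those then no longer called, Hoxa3 at −0.55 (adjusted p = 0.0565). With the fibroblast level as a covariate 12 were called, all lower, against 39.9% of all genes, and Hoxd8 was at 0.06 (adjusted p = 0.752). The contractile level did not overlap between WT (at least 9.48) and the model (at most 9.18), and neither did the macrophage level. These 2 fits therefore cannot tell marker level and group apart. With the macrophage level in the fit, no Hox gene and 2.29% of all genes were called. The estimates of Hoxa4 (−1.18) and Hoxb8 (−0.92) were then further from 0, and most others were closer to 0, such as Hoxa3 (−0.53).

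The second comparison asked whether Scl-Ab changed the Hox genes in the model. Of the 16 members 1 was called, Hoxa4, against 7.44% of all genes (2.64% higher and 4.8% lower, or 3.82% and 4.08% with trimmed-mean (TMM) scaling and 1.78% and 0.955% with libraries brought to equal totals). It ranged from 3.82 to 5.33 with vehicle (median 4.76) and from 3.28 to 9.59 with Scl-Ab (median 6.51), and 9 of 10 Scl-Ab libraries lay above every vehicle library. The level was 1.30-fold higher (log2 difference 0.37, SE 0.114, adjusted p = 0.0430), between the vehicle-treated model and WT. The call sat at the threshold: it was lost when any of 12 single libraries was left out (adjusted p up to 0.0882, without vehicle replicate 2), in a fit of the 2 groups alone (0.0779) and in a Wilcoxon test (0.0541). With an index of clock genes in the fit, chosen after the data were seen, the log2 difference was 0.12 (adjusted p = 0.965). In that fit 0.0222% of all genes were called, so the loss is not particular to Hoxa4.

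The other Hoxa genes of low number had upward estimates that did not pass. Hoxa3 had medians of 13.1 with vehicle and 13.8 with Scl-Ab (8.96 to 28.4), an estimate of 1.41-fold (adjusted p = 0.0809, 95% interval of the log2 difference 0.14 to 0.84). Hoxa2 had a median of 8.10 with Scl-Ab (6.34 to 15.5), an estimate of 1.27-fold (adjusted p = 0.110). Scl-Ab replicate 17 was highest for Hoxa2, Hoxa3 and Hoxb4. Without Scl-Ab replicate 10, the lowest for Hoxa3, Hoxa3 did pass (log2 difference 0.57, adjusted p = 0.0406).

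In the Hoxb cluster 0 of 7 passed by limma or by the Wilcoxon test, and 1, Hoxb4, had an unadjusted limma p under 0.05 (0.0323). Hoxb4 had a median of 6.25 with Scl-Ab (4.66 to 14.2; 1.25-fold, adjusted p = 0.156), Hoxb6 one of 4.54 (3.55 to 5.61; 1.13-fold, adjusted p = 0.329) and Hoxb2 one of 7.30 (5.61 to 10.3; 1.07-fold, adjusted p = 0.751). The 95% interval of the log2 difference ran from −0.04 to 0.38 for Hoxb6 and from −0.19 to 0.38 for Hoxb2. Of the rest, Hoxc4 had a median of 1.63 with Scl-Ab (0.778 to 2.90; 1.22-fold, adjusted p = 0.162), Hoxc6 one of 2.34 (0.869 to 3.02; 1.26-fold, adjusted p = 0.201) and Hoxd8 one of 0.990 (0.497 to 2.08; 1.04-fold, adjusted p = 0.845). Without vehicle replicate 1, the highest vehicle library for all 3, Hoxc4 passed (log2 difference 0.37, adjusted p = 0.0442). Hoxc4 had reached 1 in 8 of 10 Scl-Ab libraries and 4 of 9 vehicle libraries. It was thus detected largely through the Scl-Ab group, and this call is given as a description.

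Unadjusted, 5 of 16 members had p under 0.05 in this comparison, near the share of all genes (3378 of 13510), and the median log2 difference of the 16 was 0.12 against −0.01 over all genes. The 4 paralogue differences shifted by −0.09, −0.04, 0.16 and −0.02 with Scl-Ab, and the groups overlapped in each. Cardiac muscle markers had a summed median of 428 (53.4 to 1087) with Scl-Ab against 105 with vehicle (32.5 to 519). Of these 7 markers 1 was called higher by limma and 6 had an unadjusted p under 0.05, with a median log2 difference of 2.05. The adipocyte markers, of which 0 of 8 passed by limma and 0 had an unadjusted p under 0.05, had a summed median of 3457 (865 to 7624) with Scl-Ab. With the cardiac level in the fit, 4 members were called, all higher (Hoxa2, Hoxa3, Hoxa4 and Hoxb4), and 15.8% of all genes were called. In the libraries whose title code ends in 27 to 33, Hoxa4 was called, as were 0.688% of all genes. In those ending in 12 to 15 it was not (log2 difference 0.28, limma adjusted p = 0.830). There 0% of all genes were called, so the missing call is not particular to Hoxa4. What the codes stand for is not given in the labels.

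**Figure D4:**
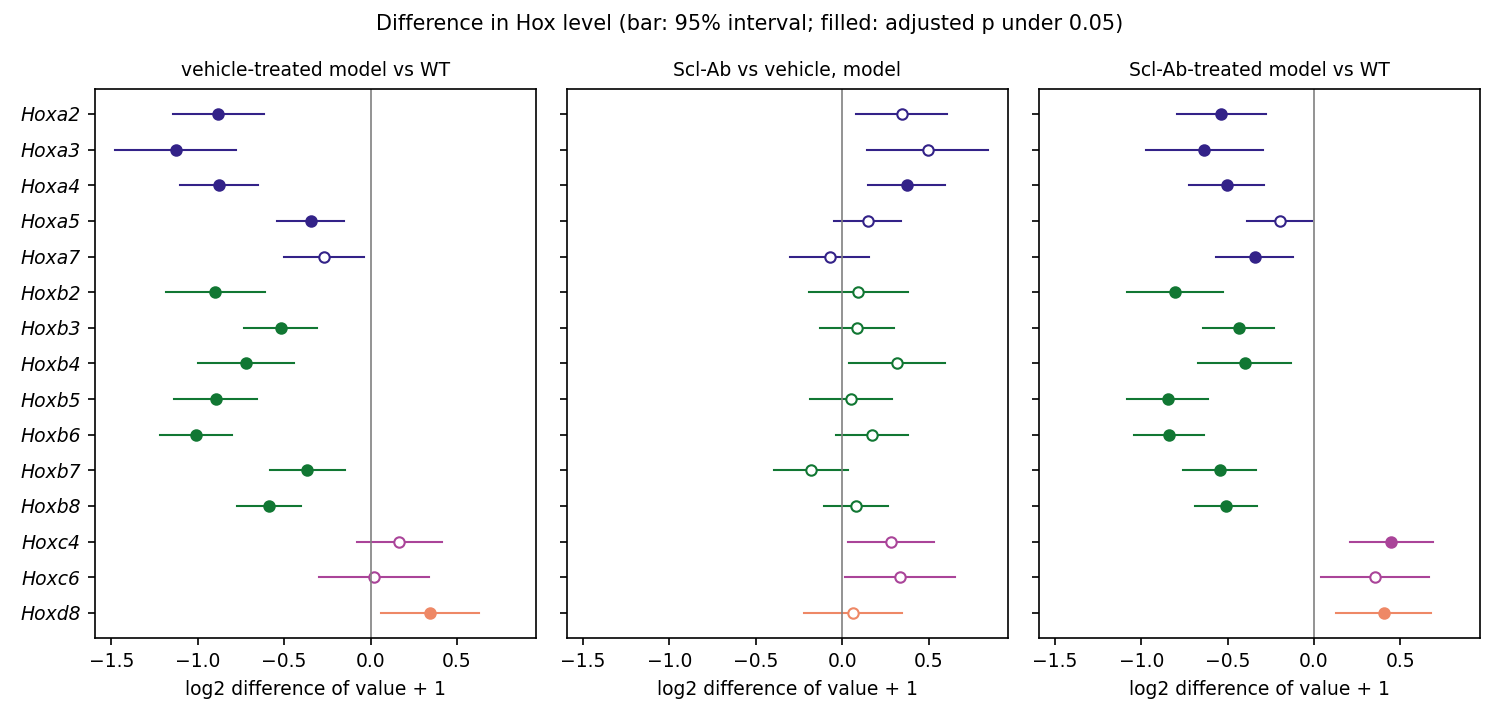
Difference of log2(FPKQ + 1) for 15 detected Hox genes in the 3 comparisons, with 95% intervals; filled points are called, and colours mark the clusters (Hoxa blue, Hoxb green, Hoxc purple, Hoxd orange). Hoxa and Hoxb points lie left of 0 in both comparisons with WT and Hoxc and Hoxd points right of 0, while in the middle panel only Hoxa4 is filled.

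Set against WT, the Scl-Ab-treated model had 14 of 16 members called, 12 lower and 2 higher, against 50.4% of all genes (30.5% lower and 19.8% higher, or 23.1% and 24.5% with TMM scaling). This comparison shares its WT libraries with the first. The 12 lower included Hoxa2, Hoxa3, Hoxa4, Hoxa7 and the 7 Hoxb genes, with Hoxb5 at 0.556-fold and Hoxb6 at 0.559-fold the lowest. Hoxb2 and Hoxb6 lay below every WT library, as did 6.54% of all genes. Hoxa5 did not pass (0.871-fold, adjusted p = 0.0843). Hoxc4 was 1.36-fold higher (adjusted p = 0.00341, 7 of 10 libraries above every WT library) and Hoxd8 1.32-fold higher (adjusted p = 0.0176), again as a description for genes detected mainly in model libraries, whereas Hoxc6 missed the threshold (1.28-fold, adjusted p = 0.0651). With the contractile level in the fit, 7 members were called, all lower, against 31.8% of all genes, and Hoxd8 was among them (log2 difference −0.36, adjusted p = 0.0448). Here too the contractile level did not overlap between the groups (at most 9.08 with Scl-Ab), so it cannot be told apart from group. Hoxa3 was 0.644-fold with Scl-Ab and 0.458-fold with vehicle, and Hoxa4 0.705-fold and 0.545-fold.

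Hox levels also varied with the level of adipocyte markers. Fat depots are known for Hox profiles of their own, and the mean log2 level of 8 adipocyte markers ranged widely within each group. Across the 29 libraries, with the group means in the model, 9 of 16 members had a called slope, against 36.7% of all genes: 4 rose with the adipocyte level and 5 fell (15% and 21.7% of all genes). The split depended on scaling: it was 4 and 2 with TMM scaling and 4 and 8 with equal totals, and among all genes 17.5% and 12.8% with TMM scaling and 11.8% and 36.6% with equal totals. The slopes are log2 units of Hox level per log2 unit of adipocyte level.

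Those that rose were Hoxd8 (slope 0.23, SE 0.0344, adjusted p = 4.42e-06), Hoxc6 (0.22, adjusted p = 0.000424), Hoxc4 (0.18, adjusted p = 0.000193) and Hoxa5 (0.12, adjusted p = 0.00313). All 3 detected Hoxc and Hoxd genes were thus among them. Hoxc4 and Hoxd8 had passed the detection rule mainly through model libraries, so their slopes are given as a description. Those that fell were Hoxb2 (−0.23, SE 0.0366, adjusted p = 1.57e-05), Hoxa3 (−0.19, adjusted p = 0.0144), Hoxb7 (−0.10, adjusted p = 0.0372), Hoxb3 (−0.10, adjusted p = 0.0365) and Hoxb6 (−0.10, adjusted p = 0.0373). The last 3 sat near the threshold, and without vehicle replicate 1 only Hoxb2 of the 5 remained called, while the 4 that rose all did.

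Vehicle replicate 1 had the highest adipocyte level of all libraries (9.05) and the lowest contractile level (7.73). It also had the highest values of Hoxc8 (3.00) and Hoxd8 (2.33) in the series and the lowest of Hoxa3 (5.63) and Hoxb2 (4.45). WT replicate 20 had the lowest adipocyte level (3.88), the lowest WT values of Hoxc6 (0.495) and Hoxc8 (0.0599) and the highest WT values of Hoxb4 (12.7) and Hoxb6 (11.3).

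Within the groups taken alone, Hoxd8 had slopes of 0.15 (WT), 0.27 (vehicle) and 0.26 (Scl-Ab) (adjusted p = 0.125, 0.00650 and 0.0158 by limma). Hoxb2 had slopes of −0.11, −0.33 and −0.20 (adjusted p = 0.319, 0.000212 and 0.0424 by limma). Hoxa3 had a slope of 0.03 in WT and −0.34 with vehicle. With the adipocyte level in the fit, the vehicle-treated model against WT still had 13 members called, all lower, against 54.8% of all genes, and Hoxd8 was no longer called (log2 difference 0.16, adjusted p = 0.139). The adipocyte and contractile levels moved together: 7 of 8 contractile markers fell with the adipocyte level, and with the contractile level in the fit 3 slopes and 7.96% of those of all genes were called. Other markers rose with it, among them 6 of 7 for fibroblasts and adventitia, 5 of 7 for cardiac muscle and all 4 tested for Schwann cells and nerve. The part of each cell type in these slopes was not tested further.

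**Figure D5:**
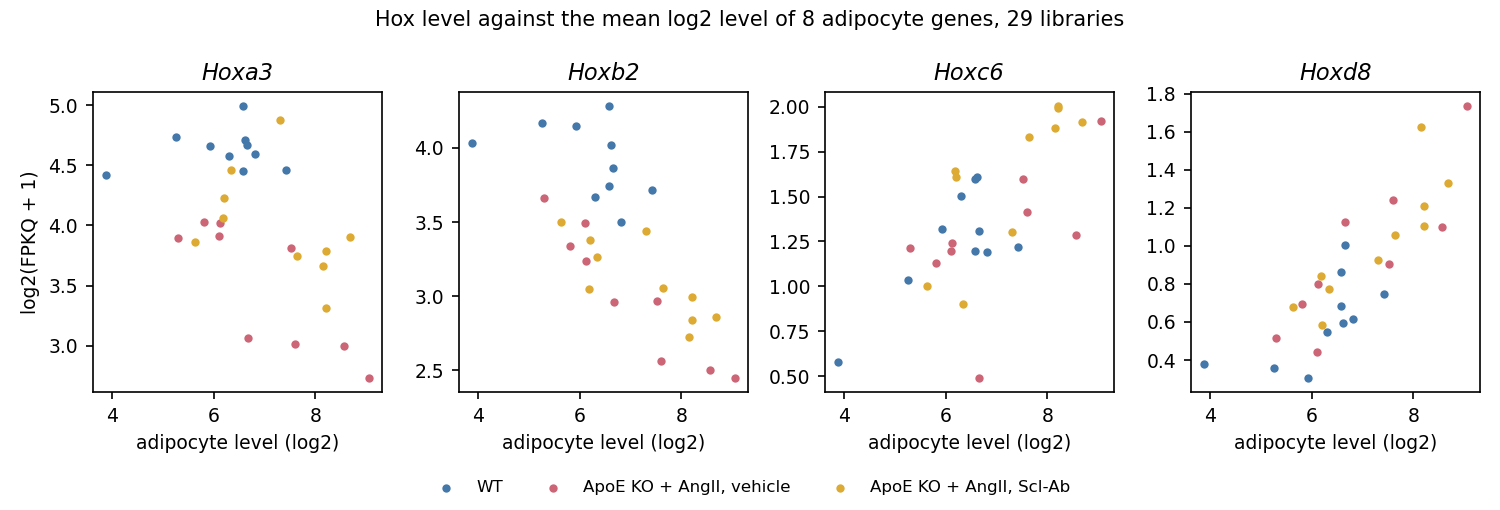
Log2(FPKQ + 1) of Hoxa3, Hoxb2, Hoxc6 and Hoxd8 against the mean log2 level of 8 adipocyte markers, one point per library, coloured by group. Hoxd8 and Hoxc6 points climb to the right and Hoxb2 points descend. At similar adipocyte levels, WT points lie above model points for Hoxb2 and above most model points for Hoxa3. The clearest exception for Hoxa3 is Scl-Ab replicate 17 (FPKQ 28.4).

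Of the TALE cofactors 8 of 9 were tested, and 5 were lower in the vehicle-treated model, none higher (median log2 difference −0.25), where 31.0% of all genes were lower and 22.7% higher. Meis1 averaged 15.6 ± 0.972 over the WT libraries (SD, n = 10) and 8.72 ± 1.89 over those of the vehicle-treated model (SD, n = 9), a 0.577-fold level (limma adjusted p = 6.78e-08). Meis3 was 0.557-fold (adjusted p = 3.77e-06) and Meis2 0.784-fold (adjusted p = 0.000305). With Scl-Ab 1 of 8 was called, against 7.44% of all genes (2.64% higher) and from 0 to 4 over the alternatives tried. It was Meis1, which rose 1.27-fold over vehicle, to 11.2 ± 1.66 (SD, n = 10, limma adjusted p = 0.0244). Pbx3 (1.15-fold, adjusted p = 0.123) and Pbx2 (1.11-fold, adjusted p = 0.181) did not pass.

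The retinoic acid pathway was mixed, with 4 of 14 tested genes higher and 5 lower in the model, close to the same shares of all genes. Crabp2, which carries retinoic acid to its receptors, averaged 0.356 ± 0.253 in WT and 4.02 ± 1.33 in the model. On the log2(value + 1) scale this was 3.63-fold (limma adjusted p = 7.88e-08). It reached 1 in 19 libraries, and its WT mean was under 1. Crabp2 was thus detected mainly through model libraries, and its call is given as a description. The receptor Rarg fell to 0.601-fold (adjusted p = 7.14e-06). With Scl-Ab, Rarg was 1.55-fold higher than with vehicle (26.2 ± 4.41 against 16.8 ± 3.97; limma adjusted p = 0.00361), and Dhrs3, which reduces retinal to retinol, was 0.684-fold (adjusted p = 0.00938). Rxrb did not pass (1.103-fold, adjusted p = 0.127).

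Of 21 Polycomb and trithorax genes 12 were lower and 3 higher in the model (31.0% and 22.7% of all genes). Phc1 (0.701-fold, adjusted p = 2.22e-08) and Cbx7 (0.597-fold, adjusted p = 1.47e-07), subunits of Polycomb repressive complex 1, and Men1 (0.775-fold, adjusted p = 4.53e-05), a partner of trithorax methyltransferases, had the smallest p. With Scl-Ab 2 of the 21 rose and 0 fell, against 2.64% of all genes higher and 4.8% lower. Over the alternatives tried from 0 to 6 were called. Among the 2 that rose was the Polycomb subunit Cbx2 (1.38-fold, adjusted p = 0.00451), and Kmt2a had an estimate of 1.12-fold (adjusted p = 0.0945).

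Other regulators of the outflow tract, the arch and neural crest had 9 of 20 tested genes lower and 1 higher in the model, a total near the 53.7% of all genes called. Foxc1, needed for arch and outflow tract formation, was 0.559-fold (28.1 ± 2.44 in WT, 15.6 ± 3.58 in the model; limma adjusted p = 1.53e-06). Tbx2 was 0.769-fold (adjusted p = 0.000103) and Hey2, a Notch target in arterial cells, 0.628-fold (adjusted p = 0.000105). With Scl-Ab 0 of 20 passed by limma, with 5 at an unadjusted p under 0.05, the same share as over all genes, Msx1 coming nearest (1.22-fold, adjusted p = 0.0589), then Prrx1 (1.23-fold, adjusted p = 0.0802) and Hey1 (1.17-fold, adjusted p = 0.139).

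Noncoding and neighbouring genes of the clusters were found in the files for 19 of 26 names, and 9 were tested, of which 5 were lower and 2 higher in the model (31.0% and 22.7% of all genes). The antisense transcripts fell together with their clusters: Hoxaas2 went from 7.98 ± 1.21 to 3.01 ± 0.691 (0.445-fold, limma adjusted p = 1.91e-06), Hotairm1 was 0.666-fold (adjusted p = 0.000308), Hoxb5os 0.564-fold (adjusted p = 3.65e-05) and Hoxb3os 0.550-fold (adjusted p = 0.000990). Exons of each overlap those of a Hox gene on the other strand, so reads could be shared between them.

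Outside the clusters the direction varied. Skap2, next to the Hoxa cluster, was 1.32-fold higher (36.6 ± 3.07 against 27.5 ± 1.54; limma adjusted p = 6.59e-06) and Snx10, further along the same side, 1.94-fold higher (adjusted p = 0.000297). Calcoco1, beside the Hoxc cluster, was 0.573-fold (32.6 ± 4.11 against 57.3 ± 3.07; limma adjusted p = 8.66e-11), while Hoxc4 and Hoxc6 did not pass. Calcoco1 rose with Scl-Ab (log2 difference 0.26, limma adjusted p = 0.0189), the only one of the 9 to do so; Skap2 (0.904-fold, adjusted p = 0.145) and Hoxaas2 (1.29-fold, adjusted p = 0.182) did not pass.

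The median member varied more between libraries of a group than the median gene of similar level. The within-group SD of log2(value + 1) had a median of 0.267 over the 16, against 0.207 over 8801 tested genes in the same range of level. Hoxa3 (0.404), Hoxc6 (0.367) and Hoxb2 (0.331) varied most, and Hoxb8 (0.203) and Hoxa5 (0.220) least, with Hoxb8 just below the 0.207.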

How the data were processed

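RNA sequencing of the aortic arch was measured in 29 libraries, each with 1 deposited table of FPKQ for 51456 genes. The deposited values are FPKM-like, scaled by gene length, and appear to be brought to 1 upper quantile, since the 85th percentile was 6.99 to 7.30 in every library. The submitters' processing notes name GRCm38 and DESeq2 1.10.1 without a role, and the aligner and counting step are not stated in the labels or files. Per the labels' protocols, stranded mRNA libraries were made from at least 80 ng of RNA with an integrity number of at least 7. Read totals are unknown, and between 12558 and 13397 genes reached 1 in a library.

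Groups came from the labels. Limma 3.58.1 (trend, robust; R 4.3.3) was fitted to log2(value + 1) of all 29 libraries with 3 group means. It covered the 13510 genes that reached 1 in 9 or more libraries, with Benjamini-Hochberg adjustment and a threshold of 0.05. For the slopes, the mean log2 adipocyte level was added as a term. The Wilcoxon test was checked against SciPy 1.17.1. Gene models came from GENCODE M21. The members and lists were chosen with earlier results of these data known.

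The rule was to name every detected Hox gene, give group ranges for those called, or with a log2 change of at least 0.5, in the first or second comparison and for the 2 highest genes of each cluster, and name the 3 genes of smallest p in each related list. The values of some of these genes are not reported here, and counts include them. Other genes named, such as Hoxc8 and the antisense and flanking genes beyond those 3, were chosen after their values were seen. On simulated data over 13510 genes, changes of 1.25-fold, 1.5-fold and 2-fold were recovered in 42, 78 and 100% of 50 genes for the vehicle-treated model against WT, and in 52, 76 and 96% for Scl-Ab against vehicle. The changed genes were drawn at random from all tested genes, with folds set on the log2(value + 1) scale. The median within-group SD was 0.267 over the Hox members and 0.201 over all tested genes. These rates therefore do not give the recovery for Hox genes. Pseudocounts, filters, scalings, a Wilcoxon test, marker covariates and single left-out libraries were tried as alternatives. No 2 libraries were duplicates, the smallest root mean square log2 difference within a group being 0.235.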

Additional observations from a re-analysis of the deposited data

Results flagged for a closer look

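Single libraries stood far from the rest of their group in 8 of 69 sets of values examined (19 Hox genes and 4 cluster sums in 3 groups), where chance gives about 1 in 20. Scl-Ab replicate 17 accounts for 4 of these: it had the highest Hoxb4 (14.2, the next library 8.49), Hoxb5 (5.67, next 4.01), summed Hoxa cluster (68.3, next 53.8) and summed Hoxb cluster (49.1, next 40.0) of its group, and the lowest fibroblast and cardiac marker levels there. Vehicle replicate 1 accounts for 2: it had the highest Hoxc4 (2.29, next 1.32) and summed Hoxd cluster (3.75, next 2.19) of its group, with the highest adipocyte level of the series. In Scl-Ab replicate 10 Hoxa7 was 9.12 (next 6.29), and in WT replicate 25 Hoxa3 was 30.9 (next 25.6). The part of fat, muscle or fibroblast content in these values was not tested.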

How the results depend on the processing

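Counts of called Hox genes in both directions together stayed within 1.5 times their main value with pseudocounts of 0.1 and 0.5, a mean of at least 1, TMM scaling, equal totals or a fit without robust variances. By direction, a mean of at least 1 left 0 higher for vehicle against WT and 1 for Scl-Ab against WT, and scaling changed the falling slopes from 5 to 2 (TMM) or 8 (equal totals). For the vehicle-treated model against WT the count was 12 to 14 with single libraries left out and 0 with the macrophage covariate (2.29% of all genes). For Scl-Ab against vehicle the count was 0 without a filter, where 1.4% of all genes were called against 7.44% in the main fit. It was also 0 in the fit of the 2 groups alone (2.29% of all genes), with the title-code block (2.58%) and in codes ending 12 to 15 (0%). The clock covariate (0.0222%) and the Wilcoxon test (3.06%) gave 0 too. It was 2 with the adipocyte (11.8%) or contractile (12.9%) covariate, 3 with the fibroblast (13.5%) and 4 with the cardiac covariate (15.8%). With single libraries left out it was 0 to 2 (4.05% to 9.05%). For the Scl-Ab-treated model against WT it was 7 with the contractile (31.8% of all genes) and 0 with the macrophage covariate (2.33%). With single libraries left out it was 13 to 15. For the adipocyte slope it was 3 with the contractile covariate, 4, 5 and 5 within WT, vehicle and Scl-Ab alone, and 5 (without vehicle replicate 1) to 10 with single libraries left out. Where a call stood in either fit, log2 differences that changed sign with the contractile covariate included Hoxc4 (−0.39) and Hoxd8 (−0.35) for vehicle against WT and, for Scl-Ab against WT, Hoxc4 (−0.17), Hoxd8 (−0.36) and Hoxa3 (0.0051). With the macrophage covariate these were Hoxd8 for both (−0.20 and −0.093) and Hoxa7 for Scl-Ab against WT (0.0010). Within WT alone the slopes of Hoxa3 (0.031) and Hoxa5 (−0.0047) changed sign. Among values called in neither fit, signs changed too, as for Hoxc6 with the contractile covariate (−0.44 for vehicle and −0.16 for Scl-Ab against WT), Hoxa7 with the macrophage covariate (0.11 for vehicle against WT) and the slope of Hoxa7 within WT (−0.12). The contractile and macrophage levels did not overlap between WT and the model, and the cause of these changes was not tested. The fibroblast, cardiac and clock covariates and the alternatives for the paralogue differences were chosen after seeing the data; over 21 alternatives the 4 paralogue shifts against WT stayed between 0.75 and 1.60. Replicate numbers differ between groups, but title codes share their last 2 digits in 8 pairs of a vehicle and an Scl-Ab library. Deviations from the group means correlated above 0.1 in 2 of 8 pairs (−0.461 to 0.572), and 1 vehicle library correlated best with its own pair. With these pairs as a replicate block, chosen after seeing the data, 0 Hox genes and 0.0518% of all genes were called by limma (Hoxa4 adjusted p = 0.237), and 0 Hox genes and 1.33% of all genes in the same 16 libraries unpaired (0.191). Among detected members the mean log2 level was lowest for Hoxd8, Hoxc4, Hoxb8 and Hoxc6, so these genes rest on the fewest fragments for their length. Read totals are unknown, and how far this limits these genes was not tested.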
